A study of Mus musculus with 9 samples.

Results

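The mitochondrial genome encodes 2 ribosomal RNAs, 13 messenger RNAs and 22 transfer RNAs, and its transcripts were followed here in kidneys of young and old wild-type mice. Members were chosen by gene symbol, as every gene whose symbol starts with mt-, and this gave 35 of the 13081 genes in the expression table: mt-Rnr1 and mt-Rnr2, 13 mRNAs and 20 tRNAs. The genes mt-Td and mt-Tf were not analysed here. The young group held 4 kidneys from mice 3 months of age and the old group 5 kidneys from mice 16 months of age, all wild type, with no treatment given in the labels, and the study describes the mice as C57BL/6. Each library carried its own identifier, and the labels gave neither sex, litter nor preparation day. Total RNA was converted into 3′ end libraries by reverse transcription from oligo(dT), so that a read lies upstream of a stretch of A, usually at the end of a transcript, and keeps the transcript's strand. The identifiers of the young group shared one prefix and those of the old group another, so that age and any step done separately for each set of animals cannot be told apart. The values are read counts divided by 1 size factor per library (normalised counts). The table held 4486406 to 6355095 reads per library, and the errors given below cover the spread between kidneys of one age.

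As background, the mitochondrial genome is a small circle that is transcribed on both strands into long precursor RNAs. Here the plus strand means genes annotated in the sense of the reference sequence, which are both rRNAs, 12 of the mRNAs and most tRNAs, and the minus strand holds mt-Nd6 and the tRNA genes mt-Tq, mt-Ta, mt-Tn, mt-Tc, mt-Ty, mt-Ts1, mt-Te and mt-Tp. The tRNAs lie between the longer genes, and their removal by RNase P at the 5′ side and by Elac2 at the 3′ side frees the mRNAs and rRNAs. Most of the mRNAs then receive short poly(A) tails from Mtpap, the rRNAs only a few A, and the tRNAs the ending CCA. The kidney, whose proximal tubule reabsorbs solutes at a high energy cost, is among the organs richest in mitochondria.

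Sequences were read by gene symbol from the GENCODE vM21 transcripts, and positions are on the GRCm38 mitochondrial sequence. The first set shows whole tRNA genes, among them mt-Ta and mt-Tn, whose values differed most between the ages, mt-Tm, the most abundant tRNA of the young libraries, and mt-Tt, which was not called. Capitals mark the longest run of A in each gene.
mt-Ta, chrM:5018-5086, minus strand: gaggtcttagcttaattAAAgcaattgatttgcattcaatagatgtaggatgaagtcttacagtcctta
mt-Tn, chrM:5089-5159, minus strand: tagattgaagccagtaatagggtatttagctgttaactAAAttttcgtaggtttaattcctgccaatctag
mt-Tp, chrM:15356-15422, minus strand: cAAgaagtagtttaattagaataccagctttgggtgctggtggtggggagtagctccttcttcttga
mt-Tl1, chrM:2676-2750, plus strand: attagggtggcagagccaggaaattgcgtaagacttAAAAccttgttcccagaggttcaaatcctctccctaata
mt-Tm, chrM:3845-3913, plus strand: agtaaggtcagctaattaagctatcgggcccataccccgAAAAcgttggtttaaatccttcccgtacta
mt-Tt, chrM:15289-15355, plus strand: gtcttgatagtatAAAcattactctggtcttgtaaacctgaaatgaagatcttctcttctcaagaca
The longest run of A was 3 bases in mt-Ta and in mt-Tn and 2 in mt-Tp. It ranged from 2 to 4 in the 8 tRNAs of the minus strand and from 3 to 8 in the 12 of the plus strand.

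The second set shows the surroundings of the longest run of A, in capitals, in the rRNA and the mRNAs that held most of the reads.
mt-Rnr2, chrM:1462-1520, plus strand: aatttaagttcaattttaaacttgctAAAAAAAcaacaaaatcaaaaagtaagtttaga
mt-Nd2, chrM:4026-4085, plus strand: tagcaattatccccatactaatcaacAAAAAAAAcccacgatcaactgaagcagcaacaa
mt-Nd4, chrM:10201-10259, plus strand: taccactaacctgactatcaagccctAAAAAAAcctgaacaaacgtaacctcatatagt
mt-Nd1, chrM:3594-3651, plus strand: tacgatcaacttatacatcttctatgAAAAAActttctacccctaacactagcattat
mt-Cytb, chrM:14145-14189, plus strand: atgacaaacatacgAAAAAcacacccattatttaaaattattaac
The run was longest in mt-Nd2, at 8 bases, and measured 7 in mt-Nd4 and 7 in mt-Rnr2. The annotated ends of mt-Cytb, mt-Nd4 and mt-Nd2, whose shares of the mRNA reads differed most between the ages, are shown next, as the place where an oligo(dT) library is designed to read.
mt-Cytb, last 60 bases, chrM:15229-15288, plus strand: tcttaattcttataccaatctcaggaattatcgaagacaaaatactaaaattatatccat
mt-Nd4, last 60 bases, chrM:11485-11544, plus strand: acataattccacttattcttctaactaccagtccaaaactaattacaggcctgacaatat
mt-Nd2, last 60 bases, chrM:4892-4951, plus strand: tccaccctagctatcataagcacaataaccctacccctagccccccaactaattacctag
The bases of the poly(A) tail are not part of these gene sequences. Neither the length of A runs nor the base composition was tested against the values.

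Mitochondrial transcripts held 27% to 29.7% of all reads in the 4 young libraries and 35.8% to 38.1% in the 5 old libraries. The make-up of these reads differed more than their total. Shares, ratios and means are given as mean ± SD over libraries and log2 fold changes with their SE. The rRNAs held 3.61 ± 0.659% of all reads in young kidneys (SD, n = 4) and 23.6 ± 1.39% in old kidneys (SD, n = 5). The mRNAs held 24.7 ± 0.635% in young and 13.6 ± 0.889% in old kidneys, and the tRNAs 0.0117 ± 0.00285% and 0.102 ± 0.0237%. For all 3 classes the lowest library of the higher age group lay above the highest library of the other. Among mitochondrial reads only, the rRNA share was 12.7 ± 1.84% in young and 63.3 ± 2.67% in old kidneys and the mRNA share 87.3 ± 1.83% and 36.5 ± 2.72%. Per mRNA read there were 0.146 ± 0.0243 rRNA reads in young and 1.75 ± 0.206 in old kidneys. In whole kidney, fewer cells of a type and less RNA per cell cannot be told apart.

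**Figure D1:**
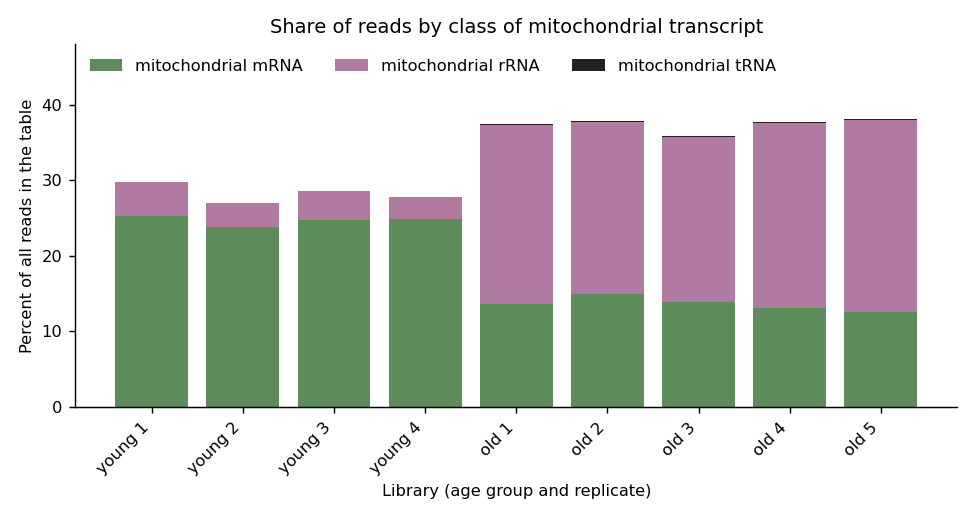
Stacked bars give the percent of all reads in the table held by mitochondrial mRNAs, rRNAs and tRNAs (vertical axis) in each of the 4 young and 5 old libraries (horizontal axis). The rRNA part spans 2.98 to 4.46% in the young and 21.8 to 25.4% in the old libraries, and the tRNA part is barely visible at this scale.

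The group was selected on the old against young values of its genes, which were known when it was proposed, so the fold changes and calls of its members are given as a description, with no p-value. A gene was called when limma, fitted to the 12667 genes that reached 10 normalised counts in 4 or more of the libraries, gave a Benjamini-Hochberg adjusted p under 0.05. Of the 35 members 34 passed this filter, and 13 of these, which were 12 tRNAs and mt-Nd4l, did not reach 10 in all 4 young libraries and passed with the help of old libraries, which favours members that are high there. Among them mt-Tt passed with 3 old libraries and 1 young library. There were 25 members called higher in old kidneys, 7 called lower and 2 not called, beside 29.2% of all genes tested called higher and 30.5% called lower. The age groups did not overlap for 30 of the 35 members, against 49.0% of all genes tested. The other 21 members reached 10 normalised counts in each of the 4 young libraries. Both rRNAs and 18 of the 19 tRNAs tested were called higher, whereas the mRNAs divided into 5 higher, 7 lower and 1 not called. The median log2 fold change, on the scale of log2(normalised count + 1), was 3.45 over the tRNAs tested and -0.85 over the mRNAs, beside -0.0027 over all genes tested.

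**Figure D2:**
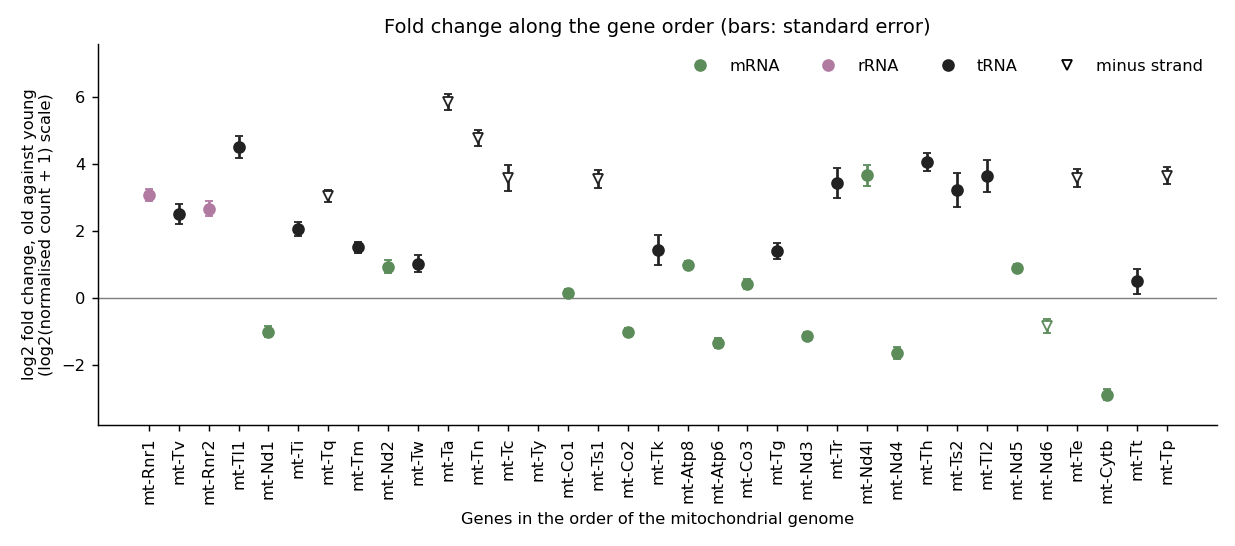
Points give the log2 fold change of old against young (vertical axis, log2(normalised count + 1) scale) and bars its standard error, for the members in the order of the mitochondrial genome (horizontal axis). Colours mark the class and open triangles the minus strand. Every tRNA point lies above 0, from 0.51 for mt-Tt to 5.86 for mt-Ta, and the mRNA points run from -2.89 for mt-Cytb to 3.67 for mt-Nd4l; mt-Ty was below the filter and has no point.

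The rRNAs are the RNA scaffold of the mitochondrial ribosome, with mt-Rnr1 in its small and mt-Rnr2 in its large subunit. mt-Rnr1 gave 52487, 33994, 46212 and 37991 normalised counts in the young libraries and 386692, 343764, 275549.8, 403664 and 381675 in the old libraries. mt-Rnr2 gave 179874, 125363, 145393 and 109429 in the young and 865827, 856758, 777980.0, 923228 and 993042 in the old libraries. For both genes every old library lay above every young one, with a log2 fold change of 3.08 ± 0.19 (SE) for mt-Rnr1 and 2.68 ± 0.22 for mt-Rnr2. The 2 rRNAs lie side by side with only mt-Tv between them, yet their proportion was not fixed. There were 3.29 ± 0.349 mt-Rnr2 reads per mt-Rnr1 read in young kidneys (range 2.88 to 3.69) and 2.49 ± 0.239 in old kidneys (range 2.24 to 2.82), and the ranges did not overlap.

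Among the mRNAs, mt-Cytb and mt-Nd4 held most of the reads in young kidneys and less in old kidneys. mt-Cytb, the cytochrome b of respiratory complex III, gave 317885, 322278, 330748 and 307795 normalised counts in young and 37477, 61479, 41746, 40433 and 38122 in old libraries. The old libraries were all far below the young ones, with a log2 fold change of -2.89 ± 0.17, and old 2 stood above the other old libraries. mt-Nd4, a subunit of complex I, gave 470435, 407284, 432574 and 445097 in young and 145798, 158677, 127230.4, 138231 and 135532 in old libraries, a log2 fold change of -1.64 ± 0.18 with no overlap. Of all mitochondrial mRNA reads, mt-Nd4 held 35.2 ± 0.915% in young and 19.8 ± 0.537% in old kidneys, and mt-Cytb 25.7 ± 1.40% and 6.12 ± 1.03%.

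mt-Nd1 and mt-Nd2, complex I subunits separated only by tRNA genes, differed in opposite directions. mt-Nd1 gave 236157, 209869, 218214 and 189457 normalised counts in young and 107930.0, 113157, 94099, 107905 and 106019.6 in old libraries. mt-Nd2 gave 158114, 134716, 168522 and 164953 in young and 309433, 323052, 302423, 286265 and 279705 in old libraries. Neither gene's age groups overlapped, and the log2 fold changes were -1.01 ± 0.17 and 0.94 ± 0.18. The reads of mt-Nd2 per read of mt-Nd1 were 0.739 ± 0.104 in young and 2.85 ± 0.233 in old kidneys. Against mt-Cytb the same quantity went from 0.49 ± 0.0507 to 7.03 ± 1.10. The share of mt-Nd2 among mitochondrial mRNA reads was 12.6 ± 0.982% in young and 42.2 ± 1.81% in old kidneys, which made it the leading mRNA of every old library. The share of mt-Nd1 overlapped between the ages, at 17.1 ± 1.18% and 14.9 ± 0.632%, although its normalised counts did not overlap.

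**Figure D3:**
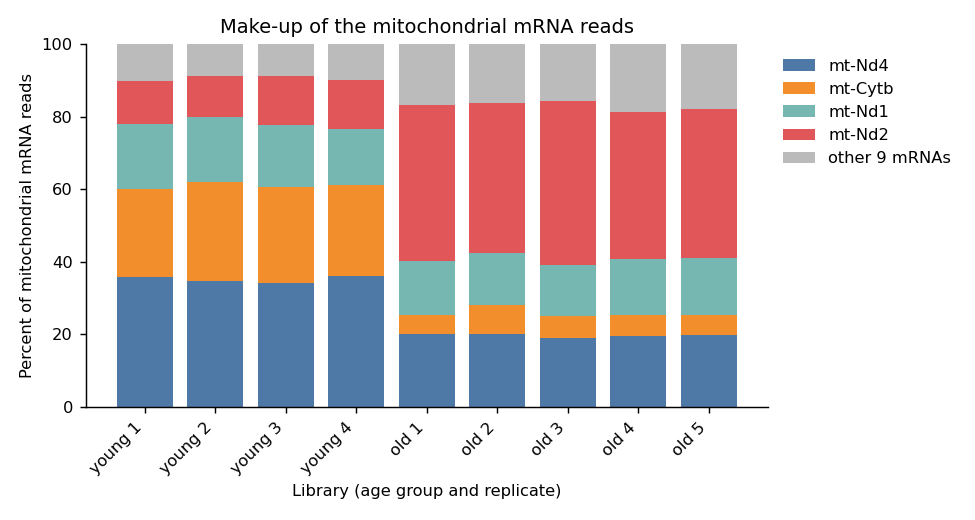
Stacked bars give the percent of mitochondrial mRNA reads (vertical axis) held by mt-Nd4, mt-Cytb, mt-Nd1, mt-Nd2 and the other 9 mRNAs together in each library (horizontal axis). The part of mt-Nd2 spans 11.5 to 13.4% in the young and 40.6 to 45% in the old libraries, and that of mt-Cytb 24.2 to 27.4% and 5.19 to 7.85%.

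The remaining complex I subunits also divided. mt-Nd3 gave 9673, 7904, 8071 and 9249 normalised counts in young and 3923, 3725, 3019, 4667 and 4802 in old libraries, a log2 fold change of -1.13 ± 0.13. mt-Nd5 gave 19891, 17492, 20177 and 17185 in young and 36442, 36998, 33146, 34812 and 32801 in old libraries, a log2 fold change of 0.90 ± 0.11. Every old library lay below every young one for mt-Nd3 and above every young one for mt-Nd5. mt-Nd6, the only mRNA of the minus strand, gave 176, 153, 288 and 191 in young and 81.3, 135, 76.1, 114 and 160.2 in old libraries. Old 5 lay above young 2, so that the groups overlapped, and the log2 fold change was -0.85 ± 0.21. mt-Nd6 lies on the strand opposite to its neighbour mt-Nd5, and per 1000 mt-Nd5 reads there were 10.7 ± 2.60 mt-Nd6 reads in young and 3.26 ± 1.09 in old kidneys.

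The 3 cytochrome c oxidase subunits of complex IV differed in direction. mt-Co1 gave 17454, 14413, 15954 and 13533 normalised counts in young and 17127, 21651, 17189, 14779 and 14609 in old libraries. Its age groups overlapped and it was not called, with a log2 fold change of 0.15 ± 0.13. mt-Co2 gave 3765, 2725, 3096 and 3341 in young and 1459, 2188, 1613, 1493 and 1308 in old libraries, which did not overlap, a log2 fold change of -1.02 ± 0.13. mt-Co3 gave 32242, 24051, 24696 and 27896 in young and 35803, 32579, 27951, 47740.2 and 40523 in old libraries. Its groups overlapped and its log2 fold change was 0.43 ± 0.15. It was not called without young 2 (0.37), without young 3 (0.38) or without old 4 (0.33). When each library was scaled to the same mitochondrial total, mt-Co1 and mt-Co3 changed sign, to -0.31 and -0.030, mt-Co1 was then called lower, and the members called were 24 higher and 8 lower.

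Some mRNAs are read from shared transcripts, and their counts within such a transcript did not move together. mt-Atp8 and mt-Atp6, subunits of the ATP synthase, are carried on a joint message and overlap by 43 bases, shown here in capitals at the end of mt-Atp8.
mt-Atp8, end, chrM:7907-7969, plus strand: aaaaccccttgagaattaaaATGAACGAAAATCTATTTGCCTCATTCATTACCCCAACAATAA
mt-Atp8 gave 6548, 5741, 6641 and 5358 normalised counts in young and 12514, 15104, 12146, 10929 and 10306 in old libraries. mt-Atp6 gave 42853, 29672, 32572 and 45019 in young and 13662, 14526, 11167, 17165 and 17593 in old libraries. The old libraries lay above the young ones for mt-Atp8 (log2 fold change 1.0 ± 0.12) and below them for mt-Atp6 (-1.34 ± 0.15). Per mt-Atp6 read there were 0.167 ± 0.039 mt-Atp8 reads in young and 0.853 ± 0.23 in old kidneys. The next gene on the strand, mt-Co3, gave 0.735 ± 0.0814 and 2.49 ± 0.222 reads per mt-Atp6 read.

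mt-Nd4l and mt-Nd4, complex I subunits that also share a message, overlap by 7 bases. mt-Nd4l gave 5.73, 1.94, 2.94 and 3.62 normalised counts in young and 67.2, 42.7, 38.5, 69 and 62.6 in old libraries, without overlap and with a log2 fold change of 3.67 ± 0.31. Per 100000 mt-Nd4 reads this was 0.797 ± 0.313 mt-Nd4l reads in young and 39.9 ± 10.5 in old kidneys. The young values of mt-Nd4l rest on 16 reads in all. How the authors' counting treated reads in the shared bases was not given in the sources used here.

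**Figure D4:**
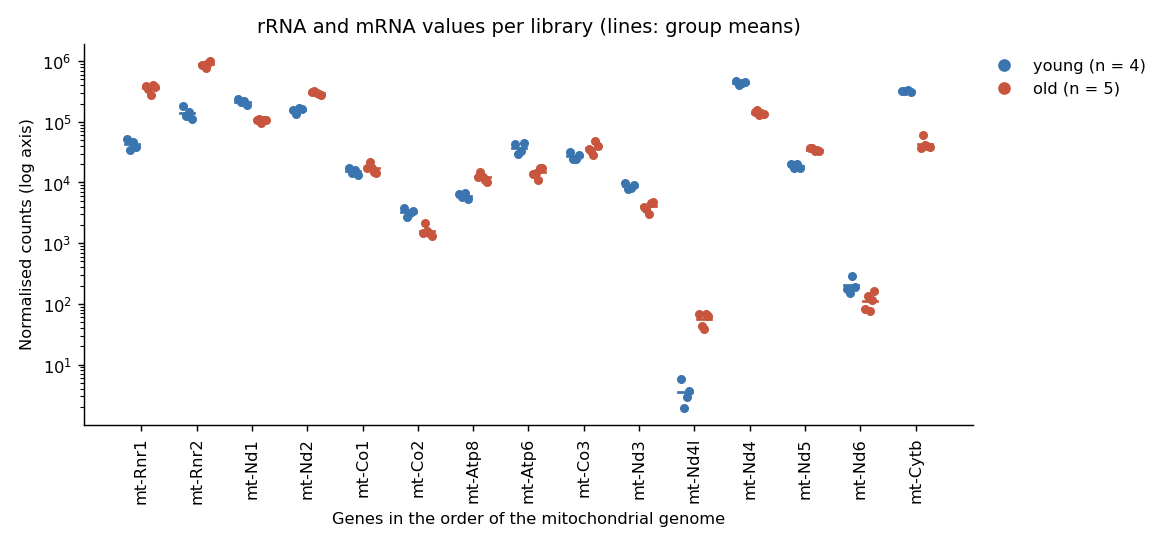
Points give the normalised counts (vertical axis, logarithmic) of the rRNAs and mRNAs in the order of the mitochondrial genome (horizontal axis), 1 point per library, with young in blue, old in red and lines at the group means. The red points of mt-Cytb lie between 37477 and 61479, below all blue points, and those of mt-Nd4l between 38.5 and 69, above all blue points.

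Transfer RNAs carry amino acids to the ribosome, and in these libraries they were rare, with 428 to 758 normalised counts per young and 3341 to 7352 per old library over all 20 genes. An oligo(dT) library is not designed to capture a mature tRNA, which ends in CCA, and the reads do not tell a tRNA from a longer RNA that contains it. The 7 tRNAs whose mean over the 9 libraries reached 100 normalised counts are given by library. For 6 of them the young mean was only 9.51 to 62.2, so that they reached this mean through the old libraries and their direction was largely set by the choice, while mt-Tm had a young mean of 230.5. mt-Ta, the tRNA for alanine on the minus strand, gave 11.5, 7.77, 8.82 and 9.96 normalised counts in young and 669.5, 551, 288, 997 and 759.6 in old libraries, a log2 fold change of 5.86 ± 0.25. Its neighbour on the same strand, mt-Tn for asparagine, gave 63.1, 30.1, 62.7 and 83.3 in young and 1755, 1666, 995, 1493 and 2278 in old libraries, a log2 fold change of 4.79 ± 0.23. The plus strand gene next to mt-Ta, mt-Tw for tryptophan, gave 25.3 to 37.1 in young and 38.5 to 93.1 in old libraries, a log2 fold change of 1.03 ± 0.25. Neighbouring genes on opposite strands thus differed in size, with 0.333 ± 0.0611 mt-Ta reads per mt-Tw read in young and 11.1 ± 5.90 in old kidneys.

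On the minus strand, mt-Tp for proline gave 93.4, 31.1, 49 and 75.1 normalised counts in young and 698, 718, 445, 789 and 1232 in old libraries, a log2 fold change of 3.66 ± 0.26. mt-Tq for glutamine gave 42.6, 58.3, 56.9 and 77.9 in young and 467, 498, 342, 668 and 522 in old libraries, a log2 fold change of 3.06 ± 0.18. On the plus strand, mt-Tl1, a leucine tRNA that follows mt-Rnr2, gave 11.5, 2.91, 11.8 and 16.3 in young and 257, 247, 148, 229 and 317 in old libraries, a log2 fold change of 4.52 ± 0.32. All 3 had young values under 100 and old values above 100. mt-Ti for isoleucine gave 64.7, 38.9, 49 and 56.1 in young and 246, 155, 211, 174 and 359.6 in old libraries, a log2 fold change of 2.07 ± 0.21. mt-Tm for methionine gave 235, 181, 201 and 305 in young and 669.5, 632, 475, 603 and 961 in old libraries, a log2 fold change of 1.52 ± 0.17. mt-Tm was the most abundant tRNA in every young library and mt-Tn in every old library.

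The split of the tRNA reads between the strands differed with age, though not every gene followed its strand. The 8 minus strand genes held 35.3 ± 1.57% of tRNA reads in young and 71 ± 3.37% in old kidneys, with no overlap. Summed over the strand, minus strand tRNAs gave 142 to 267 normalised counts in young and 2216 to 5183 in old libraries, and plus strand tRNAs 287 to 491 and 1125 to 2168. All 7 minus strand tRNAs tested were called higher, as were 11 of 12 on the plus strand, beside 29.2% of all genes. Of these sets, 4 of the 7 and 8 of the 12 passed the filter only with the help of old libraries, so that their counts and medians are no support for a direction. Log2 fold changes ran from 3.06 to 5.86 around a median of 3.60 on the minus strand and from 0.51 to 4.52 around a median of 2.29 on the plus strand. Those ranges overlapped, and mt-Tl1 (4.52) and mt-Th (4.07) of the plus strand differed more than mt-Tq (3.06) of the minus strand. The difference between strands was not tested. The other minus strand gene, mt-Nd6, was called lower in old kidneys, so that the calls on this strand did not all go in 1 direction. Its age groups overlapped, and how well these libraries capture it was not tested. Within the tRNA reads, the share of mt-Tn was 9.90 ± 2.08% in young and 30.4 ± 2.37% in old kidneys, that of mt-Ta 1.64 ± 0.228% and 12 ± 3.51%, and that of mt-Tm 39.2 ± 2.55% and 12.5 ± 1.26%.

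The 13 tRNAs with a lower mean gave 0 to 37.1 normalised counts in young and 0 to 245 in old libraries. Of the 12 tested, 11 were called higher, beside 29.2% of all genes. The exception was mt-Tt, for threonine, at 6.86 to 12.7 in young and 7.10 to 25.5 in old libraries. Of the 12, 10 passed the filter only with the help of old libraries, so that these calls are no support for a direction. mt-Tt and mt-Tp are neighbours on opposite strands, between mt-Cytb and the control region. mt-Ty, for tyrosine, had 0 reads in the 4 young libraries, 0 in old 3 and 46 over the old group. Against a floor of 3 reads per library, old kidneys were at least 3.57-fold higher on average. Of the tRNAs with the fewest young reads, mt-Tr had 7 young and 125 old reads, a ratio per unit of depth of 16.4 (exact 95% counting interval 7.73 to 41.6). mt-Ts2 had 4 and 70 reads, a ratio of 16.1 (6.01 to 60.6), and mt-Tl2 4 and 97 reads, a ratio of 22.3 (8.42 to 83.4). These intervals and the floor cover counting error only. None of mt-Ty, mt-Tr, mt-Ts2 and mt-Tl2 reached 10 normalised counts in a young library, so that they are present through the old libraries. Their ratios and the bound for mt-Ty are a description and no support for a direction.

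**Figure D5:**
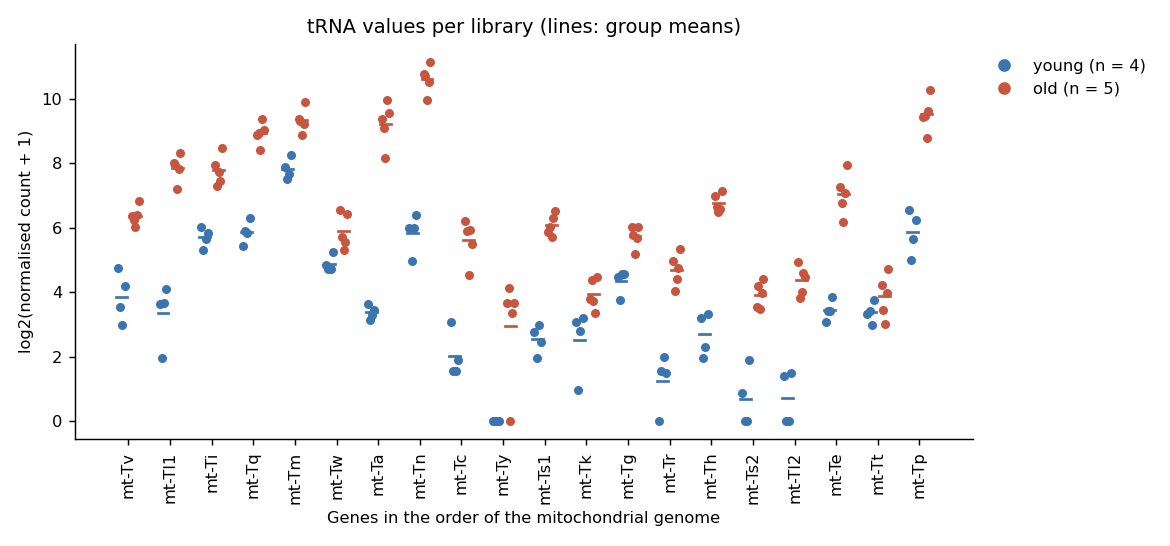
Points give log2(normalised count + 1) (vertical axis) of the 20 tRNAs in the order of the mitochondrial genome (horizontal axis), 1 point per library, with young in blue, old in red and lines at the group means. The groups overlap only for mt-Ty, where old 3 is at 0, and for mt-Tt.

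The same library of each age was most often the lowest in both classes. Old 3 was the lowest old library for 16 of the 20 tRNAs and 7 of the 13 mRNAs, and young 2 the lowest young library for 15 tRNAs and 8 mRNAs. The highest library differed between the classes, with old 5 highest for 13 tRNAs and old 2 for 8 mRNAs, and young 4 for 13 tRNAs and young 1 for 7 mRNAs. The tRNA genes span 59 to 75 bases. In normalised counts per kilobase, although counts of 3′ ends need not grow with length, the level of mt-Tn was 842 ± 309.8 in young and 23062 ± 6524 in old kidneys and the level of mt-Co1 9928 ± 1119 and 11049 ± 1839.5.

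The nuclear genome holds copies of mitochondrial sequence, and reads from them and from the mitochondrial genes cannot be told apart where the sequence is the same. In GENCODE vM21, 15 nuclear genes shared at least 50 bases in a row with a mitochondrial transcript, and 7 of them lay in a row on the minus strand of chromosome 1, from base 24611535 to 24616197 of GRCm38. Of the 50-base windows of mt-Co2, mt-Co3, mt-Atp6, mt-Nd4l and mt-Nd3, 98% to 100% were also in a nuclear transcript. mt-Co1 shared 51.1% and mt-Nd4 62.2%, but in the last 500 bases, where 3′ end reads are expected, the share was 95.3% in mt-Co1, 17.7% in mt-Nd2, 12.6% in mt-Nd5 and 0 in mt-Nd4. For 25 members no shared window was found in an annotated nuclear transcript, among them every tRNA, mt-Rnr1, mt-Nd1, mt-Atp8, mt-Nd6 and mt-Cytb. Of the 4 mRNAs with no shared window, mt-Atp8 was higher and mt-Nd1, mt-Nd6 and mt-Cytb were lower in old kidneys. Copies that are not annotated as transcripts were not searched for, so a member with no shared window can still have a nuclear copy. For example, mt-Tk and mt-Atp8 lie between mt-Co2 and mt-Atp6, which both match genes of the row on chromosome 1.

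The table held 5 of the nuclear copies. Gm28438, which matches mt-Nd3, gave 66.7 to 104 normalised counts in young and 0 to 9.13 in old libraries. Gm13340, which matches mt-Co1, gave 192 to 282 and 131 to 147, and Gm13341, which matches mt-Co2, gave 306 to 411 and 169 to 260.3. These 3 were lower in old kidneys with no overlap, while mt-Co1 itself overlapped. Gm13339, which matches part of mt-Nd2, gave 109 to 117 in young and 24.4 to 34.2 in old libraries, opposite to mt-Nd2. Gm4076, which matches part of mt-Nd5, gave 8.82 to 25.4 and 113 to 212, the same direction as mt-Nd5. Their part in the members' values was not tested.

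Other values moved with age in these libraries. Small nucleolar RNAs, which guide the modification of ribosomal RNA in the nucleus and like the tRNAs carry no long poly(A) tail when mature, were chosen for comparison after their values were seen. The 14 genes named Snora or Snord summed to 395 to 662 normalised counts in young and 8800.3 to 13529 in old libraries. Of the 11 tested, limma called 10 higher and 0 lower, beside 29.2% of all genes called higher and 30.5% called lower. The median log2 fold change of the 11 was 3.98. How many of them passed the filter only with the help of old libraries was not counted, so that these calls are no support for a direction. The labels give RNA quality as 1 range common to all samples, not per library. Proximal tubule markers, all 5 of them in the table, summed to 28183 to 29084 in young and 25136 to 32690 in old libraries, and of the 5 genes 1 was called higher and 3 lower. The 2 thick ascending limb markers summed to 7092 to 7756 in young and 8152 to 11472 in old libraries, the 2 distal convoluted tubule markers to 3035 to 3882 and 4591 to 5650, and the 3 podocyte markers to 467 to 506 and 352 to 421, each with no overlap. The calls behind these sums were 1 higher and 0 lower for the thick ascending limb, 1 higher and 1 lower for the distal convoluted tubule, and 2 higher and 1 lower for the podocyte, whose sum was lower. The collecting duct, red blood cell, macrophage and T and B cell sums overlapped between the ages. Of their genes, 0 were called higher and 2 lower for the collecting duct, 2 higher and 1 lower for red blood cells, 2 higher and 0 lower for macrophages, and none for T and B cells, with 1 of 3 markers in the table. The 4 adipocyte markers summed to 2946 to 4538 in young and 742 to 1855 in old libraries, the 3 endothelial markers to 633 to 720 and 873 to 1015, and the 3 plasma cell markers to 241 to 695 and 910.4 to 3231, also with no overlap, and their calls were 0 higher and 2 lower, 2 higher and 0 lower, and 3 higher and 0 lower. None of the 3 adrenal cortex or 3 skeletal muscle markers was in the table. All these marker calls stand beside 29.2% of all genes called higher and 30.5% called lower. The part of these RNAs, cells and preparations in the mitochondrial values was not tested.

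The nuclear genes that copy, transcribe, cut, modify and decode mitochondrial RNA were examined as 5 lists, with 89 genes tested. There were 15 called higher in old kidneys (16.9% of those tested) and 24 called lower (27%), with 50 not called, beside 29.2% and 30.5% of all genes. When libraries were scaled on genes outside mitochondria, which moved the median log2 fold change of all genes to 0.14, the count was 22 higher and 17 lower (24.7% and 19.1%), beside 35.5% and 25.1% of all genes under that scaling. The groups did not overlap for 33 of the 89, or 37.1%, beside 49.0% of all genes. The median log2 fold change over the 89 genes was -0.07. For the genes named next, parentheses hold the log2 fold change ± SE and the adjusted p from limma. Some of these genes were named regardless of value. The others were picked because they were called with ages not overlapping, or were added after their values were seen. The lists themselves were chosen with earlier results of these data known. The adjusted p of the named genes are therefore given as a description and are no support for a direction.

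In the DNA replication list, 2 of 12 genes tested were higher and 2 lower (16.7% each), beside 29.2% and 30.5% of all genes. Ssbp1, which coats single-stranded mitochondrial DNA, averaged 259 ± 23.6 normalised counts in young and 80.4 ± 12.9 in old kidneys (log2 fold change -1.69 ± 0.14, adjusted p = 7.15e-09, limma). Rrm2b, a ribonucleotide reductase subunit that supplies nucleotides, had a log2 fold change of 0.53 ± 0.16 (adjusted p = 0.00821), which was 0.086 and not called when libraries were scaled to the mitochondrial total. In the transcription list, 1 of 9 was higher (11.1%) and 2 lower (22.2%), beside the same shares of all genes. Tfam, which packs mitochondrial DNA and starts its transcription, gave 190.0, 191, 225 and 167 normalised counts in young and 112, 120.3, 94.3, 105 and 103 in old libraries, all below the young ones (-0.84 ± 0.13, adjusted p = 1.58e-05). Polrmt, the mitochondrial RNA polymerase, was not called, at 94.3 ± 11.6 and 88.8 ± 8.39 (log2 fold change -0.08 ± 0.14, adjusted p = 0.634). Tfb2m, its partner at promoters, had a log2 fold change of 0.37 ± 0.12 (adjusted p = 0.0118), and it was not called without young 4 (0.29) or when scaled to the mitochondrial total (-0.078). Tefm, below the mean of 50, is added outside the rule for named genes after its values were seen. It averaged 37.2 ± 7.17 in young and 8.50 ± 8.18 in old kidneys, with no overlap (-2.58 ± 0.60, adjusted p = 0.00108, limma). Its log2 fold change was the lowest of the 89 genes.

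In the list of RNA processing, polyadenylation and decay, 6 of 23 genes were higher and 6 lower (26.1% each), beside 29.2% and 30.5% of all genes. Slirp gave 414, 429, 435 and 415 normalised counts in young and 125, 127, 141, 124 and 103 in old libraries, with all old libraries below the young ones (-1.77 ± 0.11, adjusted p = 2.85e-10). Its partner Lrpprc, with which it stabilises mitochondrial mRNAs, gave 621, 563, 619 and 605 in young and 357, 284, 360.0, 319 and 344 in old libraries, also without overlap (-0.86 ± 0.10, adjusted p = 6.61e-07). The subunits of RNase P, which cuts tRNA 5′ ends, did not move together. Trmt10c averaged 54.9 ± 9.44 in young and 18.3 ± 9.84 in old kidneys (-1.69 ± 0.34, adjusted p = 0.000282), and Hsd17b10 was not called (-0.19 ± 0.11, adjusted p = 0.145). Prorp, the catalytic subunit, is added outside the rule for named genes after its values were seen. It averaged 25.3 ± 4.01 in young and 42.5 ± 12.1 in old kidneys, with no overlap (0.69 ± 0.24, adjusted p = 0.0179). Elac2, which cuts the 3′ ends, was not called either, at 48.7 ± 6.93 and 54.2 ± 1.94 (0.16 ± 0.17, adjusted p = 0.43). Mtpap, the poly(A) polymerase, was not called, at 49 ± 3.43 and 49 ± 16.8 (-0.06 ± 0.22, adjusted p = 0.826), and its sign changed when old 1 or old 4 was left out.

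In the same list, Ptcd1, which binds leucine tRNAs and their precursors, averaged 33.6 ± 4.91 in young and 125 ± 27.8 in old kidneys (1.85 ± 0.18, adjusted p = 7.6e-08). Fastkd1, a mitochondrial RNA-binding protein, had a log2 fold change of 0.92 ± 0.14 (adjusted p = 1.3e-05) and Lactb2, a mitochondrial ribonuclease, of -1.15 ± 0.09 (adjusted p = 8.76e-09). Trnt1, which adds CCA to tRNAs, was singled out after its values were seen. It gave 21.3, 21.4, 20.6 and 14.5 normalised counts in young and 62.5, 50.3, 65.9, 89.5 and 66.8 in old libraries, with no overlap (1.73 ± 0.21, adjusted p = 1.3e-06).

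In the list of tRNA and rRNA modification, 1 of 24 genes was higher (4.2%) and 10 lower (41.7%), beside 29.2% and 30.5% of all genes. The median log2 fold change of the list was -0.39, beside -0.0027 over all genes. Mto1, which modifies the wobble base of mitochondrial tRNAs, averaged 142 ± 9.03 in young and 61.1 ± 23.5 in old kidneys (-1.29 ± 0.22, adjusted p = 6.46e-05). Yrdc, which takes part in threonylcarbamoyl modification next to the anticodon, had a log2 fold change of -0.95 ± 0.17 (adjusted p = 0.000113). Mettl8, a tRNA methyltransferase, was the gene called higher (1.21 ± 0.16, adjusted p = 2.64e-06). Among the aminoacyl-tRNA synthetases and related enzymes, which charge the tRNAs, 5 of 23 were higher and 5 lower (21.7% each), beside the same shares. Iars2 and Cars2, the synthetases for isoleucine and cysteine, had log2 fold changes of 0.67 ± 0.12 and 0.63 ± 0.12 (adjusted p = 0.000134 and 0.000126), which were 0.22 and 0.18 and not called when scaled to the mitochondrial total, and Qrsl1, which helps to make glutaminyl-tRNA, of -1.0 ± 0.19 (adjusted p = 0.000184).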

How the data were processed

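Kidneys of 4 young and 5 old wild-type mice were profiled by 3′ end RNA-seq. The authors aligned reads to GRCm39 with TopHat2 v2.0.10 and Bowtie v1.0.0, allowing several places per read, and counted them per gene with HTSeq v0.6.1; how reads with several places were counted is not given in the sources used here. The labels name another version of the library kit than the study's methods. The deposited signal is the read count divided by 1 DESeq size factor per library: 100% of values came out whole within 0.01 reads. Members and lists were chosen with earlier results of these data known; besides all members, each list names up to 2 called genes per direction (mean of at least 50 normalised counts, ages not overlapping) and 8 genes regardless of value. limma v3.58.1 (R v4.3.3, trend) was fitted to log2(normalised count + 1) over genes that reached 10 normalised counts in 4 or more libraries, with Benjamini-Hochberg adjustment over all genes. The fit was tested on simulated data. edgeR v4.0.16 and DESeq2 v1.42.0 on recovered reads, other scalings, filters and pseudocounts, and leaving out each library were alternatives. Depth was 4486406 to 6355095 reads per library, where 3 reads stand for at most 0.00007% of a library. Sequences came from GENCODE vM21.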

Additional observations from a re-analysis of the deposited data

Results flagged for a closer look

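In 77 groups of values per age, 4 had a library far from the rest of its age, where chance gives about 1 in 20 (3.85 groups). The level of mt-Ty in old 3 was 0 on the scale of log2(normalised count + 1), and the other old libraries lay between 3.37 and 4.12. For mt-Tg, young 2 was at 3.77 on that scale and the other young libraries between 4.48 and 4.56. For mt-Cytb, old 2 was at 15.91 and the other old libraries between 15.19 and 15.35, all below the young libraries. The share of all reads held by mitochondrial transcripts was 35.8% in old 3 and 37.4% to 38.1% in the other old libraries.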

How the results depend on the processing

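Of the fold changes of members recomputed under the alternatives, 662 kept their direction and their side of the threshold, 3 lost the call, all for mt-Co3, and 2 reversed. The counts of 25 higher and 7 lower members were 24 to 25 and 7 when each library was left out, and the same genes remained called under edgeR, DESeq2, TMM factors and both other pseudocounts. Keeping only genes with a mean of at least 100 left 13 members called higher, since fewer were tested, and 8 higher and 6 lower nuclear genes against 15 and 24. Leaving out each library gave 12 to 16 higher and 17 to 24 lower nuclear genes. Scaling to the mitochondrial total, chosen after seeing the data, moved the median log2 fold change of all genes to -0.45, gave 1552 higher and 6186 lower among all genes and 4 higher and 47 lower nuclear genes, took the calls of Rrm2b, Cars2 and Iars2, and reversed mt-Co1 (-0.31), mt-Co3 (-0.030), Tfb2m (-0.078) and Elac2 (-0.29). Scaling to genes outside mitochondria moved it to 0.14 and reversed Polrmt (0.057) and Mtpap (0.078), and Mtpap ranged from -0.23 to 0.050 when each library was left out, above 0 without old 1 or old 4. Of the rRNAs, only mt-Rnr1 had no shared window, while mt-Rnr2 shared 1.04% of its windows and none of those in its last 500 bases. The old minus young share of rRNA was 20.04 percentage points of all reads and 50.6 of mitochondrial reads. It was 5.97 for mt-Rnr1 alone and 32.7 per 100 reads of genes outside mitochondria, also chosen after seeing the data. That of tRNA was 0.0901, 0.230 of mitochondrial reads and 0.147 per 100 other reads, and that of mRNA -11.05, -50.8, -7.59 without shared windows and -12.7. No paired analysis was possible because the titles are animal identifiers with no number shared between ages. Depth limits the tRNAs with under 10 young reads.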
